A study of Sinonovacula constricta with 9 samples.

Results

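The response of whole juvenile razor clams to a rise in salinity was described from 6 of the 9 RNA sequencing libraries of the study, chosen by their labels alone. The 3 libraries labelled high salinity came from juveniles of Sinonovacula constricta held for 6 h at 25 psu, and the 3 labelled optimal salinity came from juveniles held at 15 psu, the control. Salinity is given in practical salinity units (psu), close to the grams of salt in a kilogram of water. All animals were juveniles at day 15 after fertilization, no genotype or strain is labelled, and total RNA was taken from the whole organism, so every tissue of the animal contributes to each value. The 3 libraries at 5 psu, labelled low salinity, entered the fit in no result given here except where they are named.

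Sinonovacula constricta is a burrowing bivalve of estuarine mudflats, where tides and rain change the salt content of the water. Marine bivalves are in general osmoconformers, which means that their body fluids follow the salt content of the water around them. In a more saline medium their cells lose water, and they are known to restore volume slowly by building up small organic solutes such as free amino acids, beside changes in ion transport. None of this was measured here, where transcript levels were read at a single time.

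Transcripts are listed as numbered sequences of an assembly, called unigenes here, of which there are 246672. No file pairs the identifiers with gene names, so no function, protein, sequence or genome position is given for any of them, and the tissue label could not be checked against marker genes. Of all unigenes, 64996 had enough counts in these 6 libraries to be tested. Total estimated counts ran from 15897903 to 18427234 per library, and the tested unigenes held 97.3 to 98.3% of them. Neither the number of animals per library nor separate cultures for the replicates are labelled, so the spread that p-values rest on may be technical.

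A small part of the measured transcripts differed at 25 psu, and most of those were higher there. Of the tested unigenes, 1750 were higher at 25 psu (2.69%) and 674 were lower (1.04%), together 2424 or 3.73% of those tested (edgeR's quasi-likelihood test with adjustment by Benjamini-Hochberg, adjusted p under 0.05). Rises made up 72.2% of the calls, while 48.9% of all tested unigenes had a fold change above 0 and the median log2 fold change over all of them was -0.01. In whole animals, fewer cells of a type and less RNA per cell cannot be told apart in any of these values. Adjustment mattered for the count, since 11599 unigenes (17.8%) had an unadjusted p under 0.05. On simulated data with dispersions that varied between unigenes, the share of false calls was above the nominal 0.05. That share may be above it among the 2424 too. Its size does not carry over, since far fewer unigenes were changed in the simulation than were called here.

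Most changes were modest. The median rise among the called unigenes was 1.80-fold, with the middle 50% between 1.52-fold and 2.44-fold, and the median fall was 1.93-fold, with the middle 50% between 1.55-fold and 2.96-fold. At least a 2-fold change was fitted for 684 of the rises and 313 of the falls, at least a 4-fold change for 163 and 104, and at least an 8-fold change for 60 and 66. The largest fitted changes lay mainly in rare transcripts. Of the 66 falls of 8-fold and over, 56 had a mean under 1 FPKM (sequenced fragments per kilobase of transcript, relative to all those mapped in the library), and so did 33 of the 60 rises. In the band of at least 10 FPKM, 5 rises and 1 fall reached 8-fold.

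**Figure D1:**
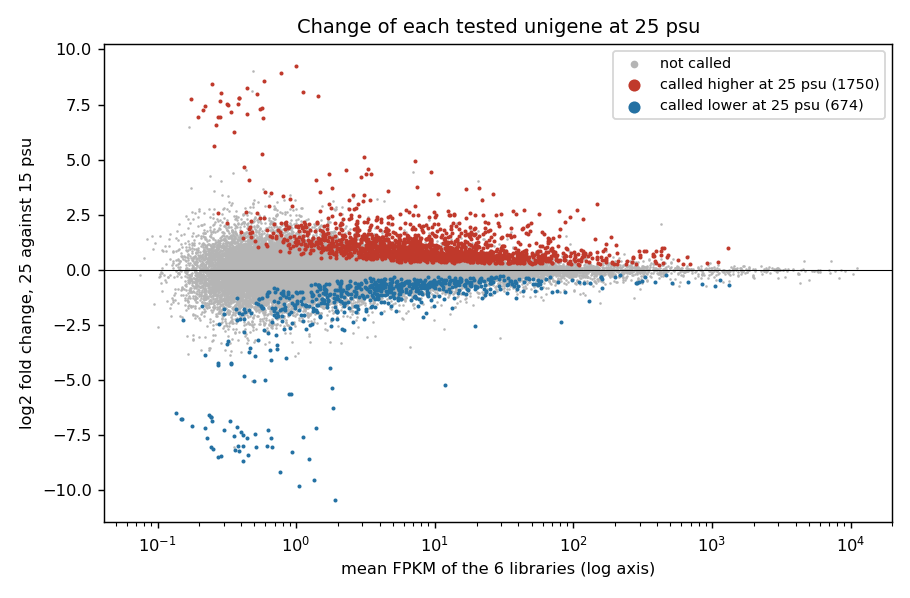
Log2 fold change at 25 against 15 psu (vertical axis) against the mean FPKM of the 6 libraries (horizontal log axis), with 1 point for each tested unigene. Red points are the 1750 unigenes called higher, blue points the 674 called lower and grey points those not called; the largest fitted changes sit at low abundance.

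A stricter question is how many unigenes changed by more than 1.5-fold, beyond the error of the estimate. Tested against that size (edgeR glmTreat, Benjamini-Hochberg adjusted p under 0.05), 353 unigenes passed, 0.543% of those tested. Of these, 296 rose (0.455%) and 57 fell (0.0877%), so rises made up 83.9%. These rises had a median of 3.43-fold and these falls of 4.37-fold, and the falls were rarer transcripts, with a median of 1.35 FPKM against 8.40 FPKM for the rises.

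The other end of the distribution was also measured. For 37613 unigenes, 57.9% of those tested, the 95% interval of the fold change lay inside a 2-fold change in either direction. That share followed abundance. It was 22.0% under 1 FPKM, 66.0% from 1 to 10 FPKM, 87.3% from 10 to 100 FPKM and 93.1% at 100 FPKM and over. These intervals rest on 3 libraries a group and can be too narrow.

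The balance of rises and falls was counted by class of abundance. At a mean of 100 FPKM and over, 84 unigenes rose and 23 fell of 945 tested. Between 10 and 100 FPKM, 672 rose and 148 fell of 7844, and between 1 and 10 FPKM, 908 rose and 372 fell of 39826. The share called was therefore 11.3%, 10.5% and 3.21% in these classes, and it was 1.32% under 1 FPKM, where 86 rose and 131 fell of 16381. Rises outnumbered falls from 1 FPKM upwards under every scaling, filter and left-out library that was run by class. Under 1 FPKM the order was not settled: it turned without control replicate 1, 2 or 3, with 66 against 56, 71 against 43 and 64 against 32, and with DESeq2's Wald test, with 40 against 39, and with a replicate block, with 20 against 13.

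The precision of the estimates differed between the classes too. The median standard error of the log2 fold change fell from 0.47 under 1 FPKM to 0.25, 0.13 and 0.08 in the successive classes. The median called rise shrank in step, from 4.40-fold under 1 FPKM to 1.96-fold, 1.58-fold and 1.50-fold, and the median called fall from 4.98-fold to 1.91-fold, 1.51-fold and 1.48-fold. A smaller change was thus needed for a call in an abundant unigene, and how much of the larger share called there this accounts for was not tested.

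**Figure D2:**
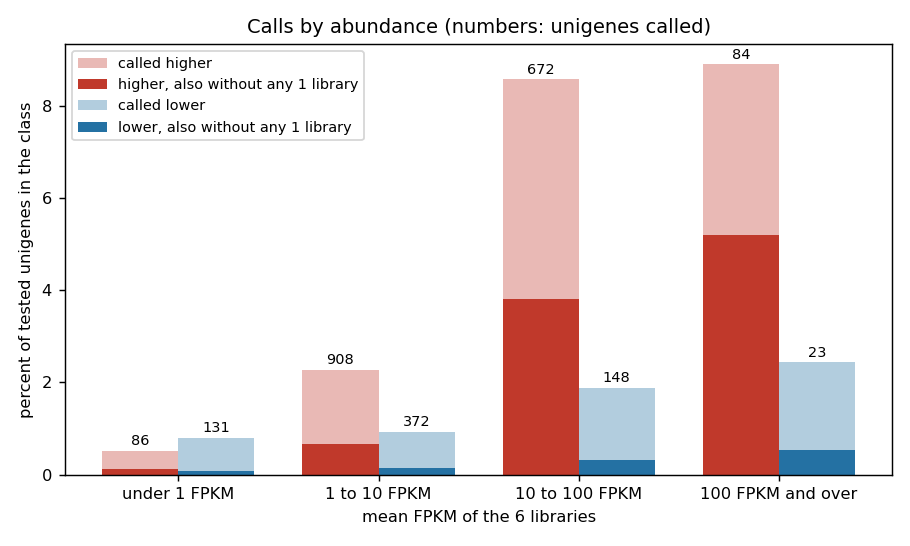
Share of tested unigenes called higher (red) or lower (blue) at 25 psu, in percent, by class of mean FPKM over the 6 libraries. The pale bars carry the number called. The dark parts are those also called when any 1 of the 6 libraries was left out. They were a larger part of the rises than of the falls in every class.

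Length went with the calls too. Unigene lengths were taken as the effective lengths implied by the deposited counts and FPKM values. Under 500 nucleotides 1.84% of the tested unigenes were called, and the share was 2.53%, 3.55%, 4.98% and 7.45% in the classes of 500 to 1000, 1000 to 2000, 2000 to 4000 and at least 4000 nucleotides. In each of these 5 classes rises outnumbered falls, from 127 against 61 in the shortest to 285 against 107 in the longest. The median standard error fell over the same classes from 0.34 to 0.18 on the log2 scale, and its part in the result was not tested. Median effective lengths were 1965 nucleotides for rises, 1946 for falls and 1365 for all tested unigenes.

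Seen as a share of all counts, which is not a share of transcript molecules, the called unigenes were a noticeable fraction. Those called higher held 6.49%, 6.83% and 6.58% of the counts in control replicates 1, 2 and 3, and 10.3%, 10.1% and 10.2% in replicates 1, 2 and 3 at 25 psu. Unigenes called lower held 1.98%, 2.02% and 2.10% in the controls and 1.37%, 1.30% and 1.31% at 25 psu. These shares describe unigenes that were called on the same libraries.

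Some transcripts had counts at 1 of these 2 salinities and none at the other. Among the rises, 25 unigenes had 0 counts in all 3 control libraries, with 42 to 223 counts over the 3 libraries at 25 psu (median 67). Among the falls, 41 had 0 counts in all 3 libraries at 25 psu, with 35 to 533 counts over the controls (median 77). Set against a floor of 3 counts over the group, these were at least 15.0-fold higher and at least 10.9-fold lower, and the medians and fold classes above keep their values with the floor. A count of 0 does not show that a transcript was absent, since it allows up to 3 counts. Of the 25 and 41, 7 and 12 were still called when any 1 of the 6 libraries was left out, in fits that share most libraries. A unigene could be tested on its counts at 1 salinity alone. How many of all tested unigenes had no counts at 1 of the salinities was not counted. The 25 and 41 thus have no background share to be read against.

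How large the response was can be set against the spread of the replicates directly. Among the 8789 unigenes of at least 10 FPKM, the median absolute difference in log2 CPM (CPM being counts scaled to library size) was 0.11 to 0.17 between 2 control libraries and 0.11 to 0.17 between 2 libraries at 25 psu. Between a control library and a library at 25 psu it was 0.22 to 0.26 in the 9 pairs. All 9 pairs across the groups lay above all 6 pairs within a group. Differences of at least 2-fold were found in 4.18 to 5.18% of these unigenes across the groups and in 1.19 to 1.77% within them. The spread within groups was alike at both salinities, with a common biological coefficient of variation of 0.26 at 15 psu and 0.25 at 25 psu.

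**Figure D3:**
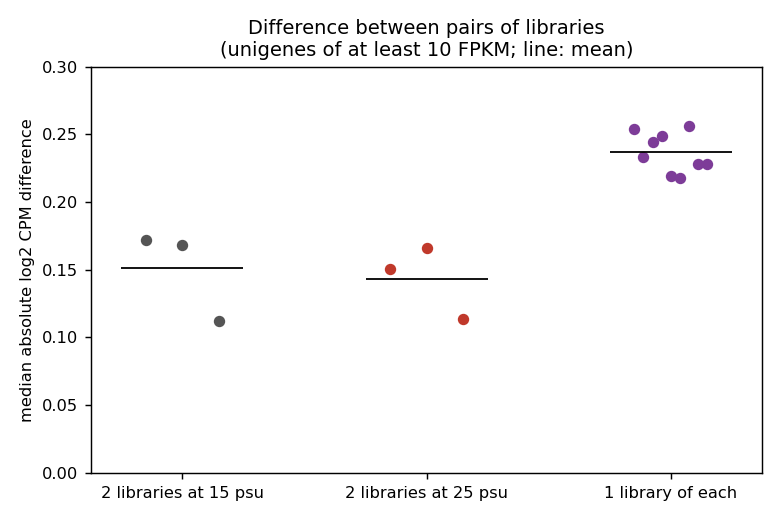
Median absolute difference in log2 CPM over the 8789 unigenes of at least 10 FPKM for each pair of libraries; every point is 1 pair and the line is the mean of its group. The 9 pairs with 1 library of each salinity lie at 0.22 to 0.26, above the 6 pairs within a salinity at 0.11 to 0.17.

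A call needs a low spread within each group, so the values of single libraries only describe the called unigenes here. Relative to the mean of the controls, the median log2 CPM of the 1750 rises was 0.82, 0.84 and 0.86 higher in replicates 1, 2 and 3 at 25 psu, while the 3 control libraries lay between -0.03 and 0.02. For the 674 falls the medians were -0.93, -0.93 and -0.90 at 25 psu and -0.01 to 0.02 in the controls. No called unigene had overlapping libraries. That count follows from the choice, and 25.7% of all tested unigenes did not overlap between the groups either. Between the nearest libraries of the groups the median gap was 1.50-fold for the rises and 1.56-fold for the falls.

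The list itself depended on each library, and its falls more than its rises. Without control replicates 1, 2 and 3 the count was 1608, 1263 and 996, and without replicates 1, 2 and 3 at 25 psu it was 1354, 935 and 1099. In these 6 fits rises were 76.1 to 82.8% of the calls. Of the 2424 unigenes, 736 were called in the same direction in all 6 (1.13% of those tested), namely 631 rises (0.971%) and 105 falls (0.162%). That is 36.1% of the rises and 15.6% of the falls. In contrast, 371 rises and 261 falls were called in none of the 6, so that each of the libraries was needed for the call. The share kept differed with the size of the change, and it was highest for rises of 4-fold to 8-fold. Of the rises under 1.5-fold, 11.4% were kept in all 6 fits, 34.9% from 1.5-fold to 2-fold, 48.9% from 2-fold to 4-fold, 69.9% from 4-fold to 8-fold and 41.7% at 8-fold and over. For falls these shares were 5.22%, 12.8%, 23.0%, 21.1% and 19.7%.

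Libraries that had no part in a fit give a check on the calls of that fit. The test was repeated with 1 library at 25 psu and 1 control left out together, in all 9 combinations chosen after the data were seen, and the unigenes it called were then looked up in the pair left out. Those called higher, 213 to 826 a fit, were higher in the left-out pair in 92.3 to 96.7% of cases (median 95.0%). Those called lower, 45 to 226 a fit, were lower there in 63.5 to 85.8% of cases (median 71.8%). For unigenes that were not called, the left-out pair had the same direction as the fit in 60.1 to 63.1%. A unigene with no counts in either left-out library was scored as not having the direction, here and below. The remainder is thus not made up of reversals alone, and such ties were not counted apart. The 9 combinations share libraries and are not independent, so no test was made of the gap between rises and falls. The filter on low counts was rerun in each, so a unigene could enter on fewer libraries, all in the group where it was high. The lists are therefore not parts of the 2424. Of the longest list of 1052 unigenes 866 were among the 2424, and of the shortest of 258 it was 213.

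The size was carried over for rises as well. The median log2 change of the rises was 0.96 to 1.74 in the fits and 0.77 to 1.66 in the left-out pairs. For the falls it was 1.21 to 8.61 downwards in the fits and 0.58 to 0.90 in the left-out pairs, the top of the first range coming from unigenes with a group at or near 0. The left-out pairs were also read by abundance. Among falls of at least 10 FPKM, 4 to 79 a fit, the left-out pair had the same direction in 83.3 to 100% (median 100%), against 53.8 to 79.3% (median 65.8%) for falls under 10 FPKM. Among rises these shares were 97.2 to 100% and 85.2 to 92.1%. Falls of at least 10 FPKM had median log2 sizes of 0.60 to 1.25 in the fits and 0.49 to 1.22 in the left-out pairs. For falls under 10 FPKM these sizes were 2.18 to 8.75 and 0.08 to 0.97.

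**Figure D4:**
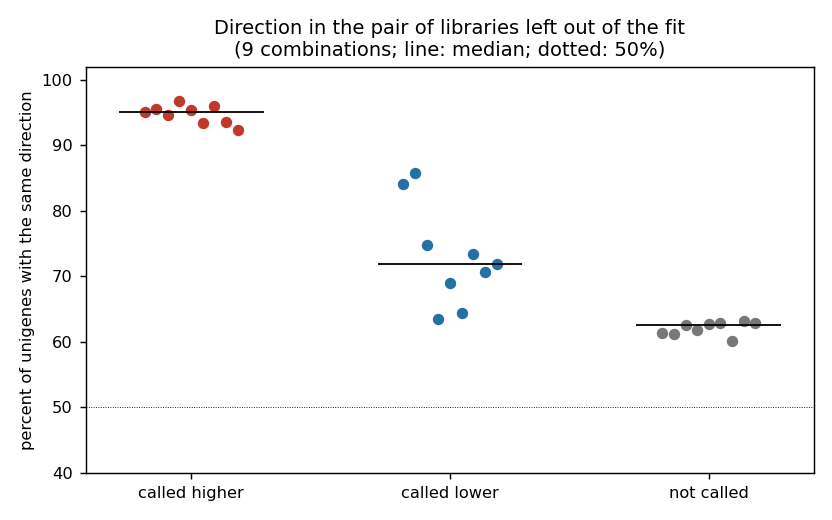
Percent of unigenes whose direction in the 2 libraries left out of a fit was that of the fit, for unigenes called higher, called lower and not called; each point is 1 of 9 combinations and the line is their median. The axis starts at 40. Rises lie at 92.3 to 96.7%, falls at 63.5 to 85.8% and unigenes not called at 60.1 to 63.1%. A unigene with no counts in either left-out library is scored as not having the direction.

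Within the 736 unigenes called in every fit, 347 rises and 30 falls had a mean of at least 10 FPKM, and these give the clearest single responses. Identifiers are given for 4 of them, in each direction the unigene with the smallest p and the one with the largest change among the rest. Values at 5 psu stand beside them for orientation. They share the control libraries with this comparison and were not tested.

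Cluster-8005.123663 had the smallest p of the rises. It held 242, 294 and 277 counts in the control libraries and 1805, 1554 and 1594 counts at 25 psu, which is 14.9, 15.9 and 16.6 CPM against 105.7, 102.8 and 102.6 CPM. The groups stood far apart, and the libraries of each lay close together. The control mean of 15.8 ± 0.854 CPM compared with 103.7 ± 1.72 CPM after exposure (SD, n = 3 each), a 6.54-fold rise (log2 fold change 2.71, SE 0.07, edgeR adjusted p = 7.31e-06). In FPKM the means were 11.8 ± 1.03 and 75.9 ± 2.78 (SD, n = 3 each). The 3 libraries at 5 psu held 8.97, 9.35 and 5.79 CPM, all below the controls.

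Cluster-8005.151340 had the largest rise of this set. Counts were low in the controls, at 21, 19 and 15, and reached 288, 181 and 208 at 25 psu. That gave 1.30, 1.03 and 0.902 CPM against 16.9, 12 and 13.4 CPM, with no overlap and with replicate 1 highest at 25 psu. From 1.08 ± 0.202 CPM it rose 13.0-fold to 14.1 ± 2.51 CPM (SD, n = 3 each; log2 fold change 3.70, SE 0.21, edgeR adjusted p = 0.000121). At 5 psu its mean was 0.900 ± 0.481 CPM (SD, n = 3), with libraries on both sides of the control range.

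Cluster-8005.114499 had the smallest p of the falls and also the largest fall of this set. Its control libraries held 2709, 3110 and 2879 counts, or 167.3, 168.6 and 173 CPM. At 25 psu 565, 491 and 499 counts were left, or 33.1, 32.5 and 32.1 CPM. The means of 169.7 ± 3.0 CPM and 32.6 ± 0.484 CPM (SD, n = 3 each) differed 5.21-fold (log2 fold change -2.38, SE 0.06, edgeR adjusted p = 7.31e-06). The libraries at 5 psu lay above all the others, at 748.8, 683.1 and 722.5 CPM.

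Cluster-8005.104346 had the next largest fall. It went from 195.3, 175.9 and 191.9 CPM in the controls to 68.4, 72.3 and 67.4 CPM at 25 psu, on 1047 to 3246 counts a library. Means fell 2.71-fold from 187.7 ± 10.3 to 69.4 ± 2.60 CPM (SD, n = 3 each; log2 fold change -1.44, SE 0.07, edgeR adjusted p = 5.41e-05). The libraries at 5 psu held 246.4, 237.4 and 205.9 CPM. All 4 of these unigenes also passed the test against 1.5-fold, and without any 1 library their log2 fold changes stayed within 2.67 to 2.75, 3.56 to 3.86, -2.39 to -2.36 and -1.48 to -1.40 in the order given.

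**Figure D5:**
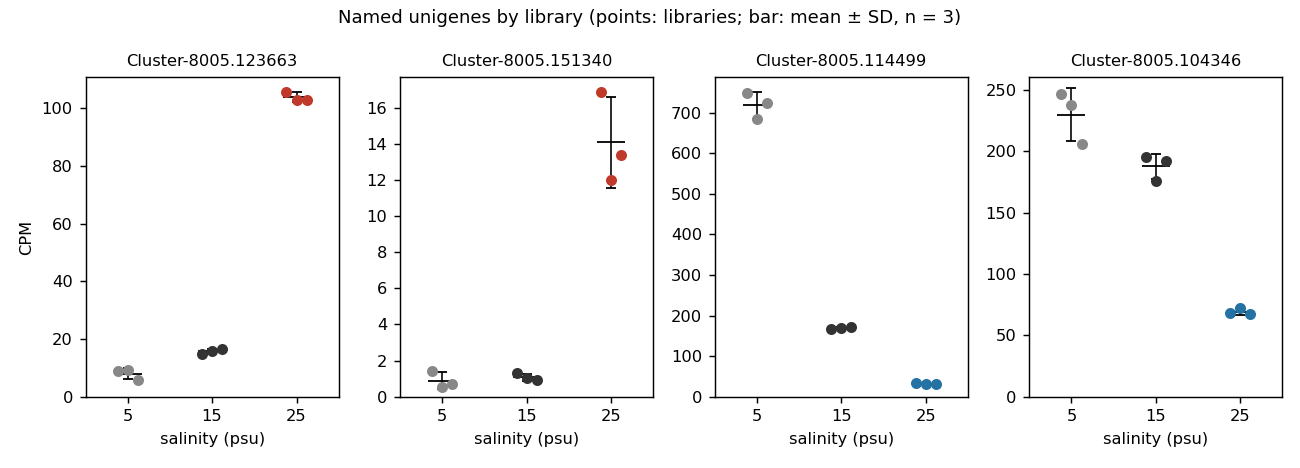
CPM of the 4 named unigenes in each library at 5, 15 and 25 psu; points are libraries and bars are the mean ± SD of 3 libraries, on linear axes from 0 that differ between panels. The first 2 stand higher and the last 2 lower in every library at 25 psu than in any control. The libraries at 5 psu have no part in the test, and their CPM are scaled over 9 libraries, the others over 6.

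The 10 rises of smallest p, which include the named one, had control means of 4.51 to 18.5 FPKM and means of 21.0 to 96.3 FPKM at 25 psu. They rose 3.36-fold to 10.7-fold (median 4.99-fold), and all 10 passed the test against 1.5-fold. The 10 falls of smallest p, again with the named one among them, were more abundant, with control means of 31.3 to 202.8 FPKM and means of 15.4 to 117.2 FPKM at 25 psu. They fell 1.51-fold to 5.21-fold (median 1.97-fold), and 6 passed that test. Adjusted p-values were at most 1.47e-05 and 0.00214 in these lists (edgeR, Benjamini-Hochberg).

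The most abundant transcripts of the set had medians near those of the whole set, which were 1.83-fold for its 347 rises and 1.83-fold for its 30 falls. The 10 most abundant rises stood at 276.8 to 886.5 FPKM in the controls and at 436.8 to 1723 FPKM at 25 psu, a change of 1.32-fold to 2.01-fold (median 1.73-fold), and 3 of them passed the test against 1.5-fold. The 10 most abundant falls stood at 67.9 to 801.2 FPKM and at 25.9 to 537.1 FPKM. With the named fall of smallest p among them, their change was 1.46-fold to 5.21-fold (median 1.67-fold), and 4 passed.

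Fewer unigenes were seen at all at 25 psu. With every library thinned to the smallest total, 155739, 155968 and 156402 unigenes had at least 1 count in the control libraries, and 149150, 146151 and 145003 at 25 psu. The means were 156036 ± 337 and 146768 ± 2141 (SD, n = 3 each), and the groups did not overlap. The exact two-sided permutation p was 0.1, the smallest that 3 against 3 allows, so the design cannot pass 0.05. The groups also stood apart at higher minimums, with means of 87884 ± 1385 and 82725 ± 1247 unigenes at 5 counts and 65228 ± 1139 and 62244 ± 942 at 10 counts (SD, n = 3 each; exact p = 0.1 for both). Control replicate 2 held 687 unigenes with at least 30 counts of which at least 90% fell in that library alone, against 19 to 30 in each of the other 5, and none of them was tested.

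A technical measure moved with salinity too. Effective lengths implied by count and FPKM carry an offset for each library that depends on its mean fragment length. Offsets were 12, 4.93 and -1.87 nucleotides in control replicates 1, 2 and 3 and -5.69, -3.79 and -5.60 nucleotides at 25 psu, a difference in means of -10.05 nucleotides (exact two-sided permutation p = 0.1, the smallest possible). With the offset as a covariate, 275 unigenes were called, 238 higher and 37 lower. Of the 238, 219 were among the 1750 rises, and of the 37, 31 were among the 674 falls. All 1750 rises and 674 falls kept their sign there, with median log2 fold changes of 0.88 and -0.94 against 0.85 and -0.95 without it. Their median standard errors grew from 0.13 to 0.20 and from 0.16 to 0.24. These rises and falls were called on the same libraries, so their kept signs and sizes are no separate check. The share of all tested unigenes that kept their sign was not counted. The part of fragment length in the calls that were lost and that of the wider error were not tested apart.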

How the data were processed

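Per the labels' protocols, Trizol was used for RNA and a NEBNext Ultra kit for the libraries. Strand is not said to be kept, so antisense partners cannot be told apart. Per unigene and library the authors deposited an FPKM value and a read count, which is an expected count since it need not be whole (25.0 to 27.6% of values). The submitters' processing notes name RSEM and Bowtie2 with no version. How the assembly was made and filtered is not given in the sources used here. Of the tested unigenes, 97.4% belong to 1 assembly cluster, as do 2415 of the 2424 calls, so related transcripts may share reads, and each single count is uncertain by that.

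Counts were rounded, filtered with filterByExpr (count minimum 10) and scaled with TMM. The 6 libraries were fitted alone with edgeR 4.0.16 (R 4.3.3, robust quasi-likelihood F test), with Benjamini-Hochberg adjustment over all 64996 unigenes at 0.05. A standard error is the log2 fold change over the root of F, and 95% intervals are normal. Detection and length offsets (over unigenes averaging 2000 counts or more) were compared by exact permutation over samples (scipy 1.17.1). Left-out pairs used log2(CPM + 0.1) with the scaling of the 6 libraries, and CPM at 5 psu used TMM over 9 libraries. On simulated data the fitted sizes were close to those put in and most small changes were missed, while where dispersions varied between unigenes its share of false calls was above the nominal 0.05.

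Named unigenes were called in all fits without 1 library, with a mean of at least 10 FPKM. In each direction the one with the smallest p and the one with the largest change (the next largest if they were the same) were named. The members, lists and tests were chosen with earlier results of these data known. Replicates differed beyond sampling noise in their counts (chi-square of 4.24 to 7.71 per degree of freedom), and floors cover counting error only. Alternatives were other scalings and filters, thinning, all 9 libraries, a replicate block, the length offset as a covariate, limma-voom and limma 3.58.1 on FPKM values logged with a pseudocount of 1 or 0.1, the Wald test of DESeq2 1.42.0, sums per assembly cluster, and leaving out libraries.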

Additional observations from a re-analysis of the deposited data

Results flagged for a closer look

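The 3 libraries at 5 psu, which the comparison does not use, held more of both named falls than any control library. Cluster-8005.114499 stood at 718 ± 33.1 CPM and Cluster-8005.104346 at 229.9 ± 21.2 CPM there (SD, n = 3 each). These counts at 5 psu were scaled over all 9 libraries, while the control CPM were scaled over 6. In the deposited FPKM values, Cluster-8005.104346 stood at 217.4 to 237.8 at 5 psu and at 180.9 to 201.1 in the controls. These differences were not tested here. Neither named rise had all 3 libraries at 5 psu above the controls.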

How the results depend on the processing

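The 4 named unigenes kept their direction and their call under all 20 alternatives run on them. The fits without 1 library are among these 20, and a call in each of those was a condition for being named. For those fits the outcome was therefore fixed by the choice. The count of 2424 calls became 5414 with no filter for low counts and 954 under a replicate block. It was 275 with the length offset as a covariate and 543 for limma with unfiltered log2(FPKM + 1) values. It was 935 to 1608 without 1 library and 258 to 1052 without 1 library of each group. With counts summed per assembly cluster, 4 of 1852 sums tested were called. As 1 cluster holds 97.4% of the tested unigenes and 2415 of the 2424 calls, the sums cannot show those calls singly. The 353 unigenes beyond 1.5-fold became 1260 without a filter, 136 with a replicate block, 70 with the length offset, and 184 to 256 without 1 library, with the lowest values of 184 and 208 without replicates 2 and 3 at 25 psu. For the fits of single unigenes, the cause of these shifts was not tested. Under the other 10 alternatives the first count ran from 1687 (all 9 libraries) to 3079 (stricter filter), with 2964 for DESeq2's Wald test and 2543 for limma-voom, of which 2089 and 2210 were among the 2424. Rises were 64.3 to 72.3% of the calls under the other scalings and thinning. No label says that a replicate number marks a batch, so the numbers were not used as pairs in the main fit. Libraries with the same number deviated together little (correlations of -0.05 to 0.13, with 1 of 3 above 0.1). Those with different numbers had correlations of -0.13 to 0.09. The replicate block kept 767 of the rises and 162 of the falls. The detection gap of -9268 unigenes ran from -10459 to -8386 without 1 library, and the offset of -10.05 nucleotides from -13.49 to -6.56. Depth limits the rare unigenes, where a count of 0 allows up to 3 counts.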
